A study of Homo sapiens with 2 samples.

Results

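The locus on chromosome 9 that holds MIR31HG, MTAP, CDKN2A and CDKN2B was examined in H3K27ac HiChIP of HCT116, an established colorectal carcinoma cell line. The members were the loops with both anchors, different from each other, overlapping chr9:21400000-22150000 of hg19. They numbered 419 in replicate 1 and 488 in replicate 2, and 720 in either, of 1973470 loops of up to 2 Mb in the genome. Their 88 anchors were among 250223 in all. HiChIP joins the ends of DNA fragments that lie near each other in the nucleus and enriches those that carry a chosen mark, here H3K27ac, which marks active promoters and enhancers. An anchor is an interval of the genome, a loop is a pair of anchors joined by at least 1 read pair, and its count is the number of read pairs in a replicate. The study has 2 replicates of 1 condition, nothing says that they came from separate cultures, and the spread between them may be technical. The locus was chosen by the loop counts themselves, in both replicates, so these are given as a description and no difference was tested.

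MIR31HG is a long noncoding RNA gene that hosts the microRNA miR-31 and is reported to restrain the p16 product of CDKN2A. MTAP encodes the phosphorylase that recycles methylthioadenosine to methionine. CDKN2A encodes from separate first exons the CDK4 and CDK6 inhibitor p16 and the MDM2 inhibitor ARF, CDKN2B encodes the related inhibitor p15, and CDKN2B-AS1 is the antisense noncoding RNA that starts between them. The region is often deleted as a block in tumours.

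MIR31HG runs on the minus strand (chr9:21403035-21559848), so its upstream side faces MTAP. MTAP lies on the plus strand (chr9:21802635-21867080), and CDKN2A (p16 transcript, chr9:21967751-21974856) and CDKN2B (chr9:22002902-22009304) lie on the minus strand. All distances are counted from the MIR31HG start site, positive towards MTAP, and an anchor is named by the distance of its midpoint. The start of MTAP was at +243 kb, that of p16 at +415 kb, that of ARF at +435 kb and that of CDKN2B at +449 kb. Each of these starts lay in an anchor, whereas the MIR31 hairpin lay in none.

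The product of the host gene is shown, although its hairpin lay in no anchor. Also shown are 3 promoters, because loops start from or reach their anchors. The mature miR-31-5p (RefSeq, GRCh38.p14, minus strand, chr9:21512158-21512178) is printed with its seed, bases 2 to 8, in capitals. The other sequences are the hg19 reference, not the sequence of HCT116. Each promoter is the 300 bases before the start site on the strand of the gene, with CG dinucleotides in capitals: MIR31HG at chr9:21559849-21560148 (minus), MTAP at chr9:21802335-21802634 (plus) and CDKN2A (p16) at chr9:21974857-21975156 (minus).
hsa-miR-31-5p: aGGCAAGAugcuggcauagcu
MIR31HG promoter: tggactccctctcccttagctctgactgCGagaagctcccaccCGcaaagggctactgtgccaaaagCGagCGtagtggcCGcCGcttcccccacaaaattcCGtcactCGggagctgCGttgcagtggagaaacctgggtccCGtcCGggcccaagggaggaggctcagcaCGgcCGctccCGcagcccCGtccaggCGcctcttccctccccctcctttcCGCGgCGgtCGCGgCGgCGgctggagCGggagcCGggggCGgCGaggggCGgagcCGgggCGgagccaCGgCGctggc
MTAP promoter: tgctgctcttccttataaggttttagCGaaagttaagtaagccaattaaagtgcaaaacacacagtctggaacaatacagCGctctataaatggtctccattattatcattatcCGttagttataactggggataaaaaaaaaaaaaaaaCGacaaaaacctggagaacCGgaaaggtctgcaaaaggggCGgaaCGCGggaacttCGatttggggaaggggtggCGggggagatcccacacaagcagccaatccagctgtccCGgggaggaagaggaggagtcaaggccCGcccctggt
CDKN2A promoter: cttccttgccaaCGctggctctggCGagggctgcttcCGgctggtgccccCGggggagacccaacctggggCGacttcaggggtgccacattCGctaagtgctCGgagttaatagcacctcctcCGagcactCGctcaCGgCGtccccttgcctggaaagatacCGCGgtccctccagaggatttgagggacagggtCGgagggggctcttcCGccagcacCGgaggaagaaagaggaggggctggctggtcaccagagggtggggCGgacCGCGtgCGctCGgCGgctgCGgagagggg

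The MIR31HG promoter held 32 CG dinucleotides, as did the ARF promoter, while that of p16 held 23, that of CDKN2B 19 and that of MTAP 12. The median was 20 over 20098 protein-coding promoters and 4 over 18592 promoters of long noncoding RNAs. MIR31HG was thus above the median of its class and MTAP below it.

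The highest count of the locus joined the +19.7 kb and +118 kb anchors, and a stretch of each is shown on the plus strand because active enhancers often hold the AP-1 motif. Capitals mark TGANTCA, which reads the same on both strands. The +19.7 kb stretch is chr9:21577281-21577580 and the +118 kb stretch is chr9:21685012-21685311, each placed around the most densely grouped motifs of its anchor.
Anchor +19.7 kb: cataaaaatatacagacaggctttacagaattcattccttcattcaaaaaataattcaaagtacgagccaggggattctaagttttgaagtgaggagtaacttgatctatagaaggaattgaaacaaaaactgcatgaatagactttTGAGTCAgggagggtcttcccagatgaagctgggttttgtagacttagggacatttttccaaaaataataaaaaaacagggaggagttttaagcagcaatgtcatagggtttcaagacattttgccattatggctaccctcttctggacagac
Anchor +118 kb: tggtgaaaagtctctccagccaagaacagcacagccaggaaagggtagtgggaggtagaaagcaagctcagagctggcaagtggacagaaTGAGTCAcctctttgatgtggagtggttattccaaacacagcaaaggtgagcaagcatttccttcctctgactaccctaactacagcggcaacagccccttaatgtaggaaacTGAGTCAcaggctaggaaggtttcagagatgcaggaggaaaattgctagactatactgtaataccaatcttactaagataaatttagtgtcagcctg

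The +118 kb stretch held the motif 2 times and the +19.7 kb stretch 1 time. When all anchors were cut into stretches of 300 bases, 9.73% held it at least 1 time and 0.603% at least 2 times. The stretches printed here were placed on matches, so nothing is read from these shares. Over its whole width the +118 kb anchor held 15 matches, or 0.559 per kb, and the +19.7 kb anchor 2, or 0.231 per kb. The median anchor of the genome had 0.295 per kb and 60.6% held a match. The 24 anchors upstream of MIR31HG held 57 matches, or 0.386 per kb, against 0.352 over all anchors. None of the 5 promoters held the motif, as against 7.77% of all promoters with a match. The core CTCF consensus, searched by its name on both strands, occurred 4 times in the window, at -93.7, +230, +245 and +253 kb, and 2 of these lay in an anchor. Of all anchors 1.42% held it.

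The replicates held 1885481 and 2131466 counts in all, of which 1187129 and 1369536 joined different anchors up to 2 Mb apart. In the locus 884 counts were found in replicate 1, with a 95% Poisson interval of 827 to 944. Replicate 2 had 1170 counts there (1104 to 1239), which gave 1027 ± 202 over both (SD, n = 2). Replicate 2 thus gave 57.0% of the summed counts of the locus (exact binomial 54.8 to 59.1%) and 53.6% of those of the genome, a gap wider than the counting error. Of the 720 loops 187 were found in both replicates (26%), as were 10.2% in the genome. A loop rested on a single read pair in 69.2% and 68.4% of the cases. Intervals cover counting error alone, and the paper mentions no molecular identifiers for the read pairs.

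The window was divided by the starts and ends of the genes: MIR31HG (to 2.5 kb past its start, 17 anchors), the upstream region (24 anchors), MTAP (from 2.5 kb before its start to its end, 10 anchors), the stretch from MTAP to CDKN2A (15 anchors), CDKN2A with CDKN2B (5 anchors) and the stretch beyond CDKN2B (17 anchors). Anchors were placed by their midpoint, so the wide anchor that holds the MIR31HG start counted as upstream.

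Most counts of the locus joined anchors of the region between the MIR31HG start and MTAP. MIR31HG and its upstream region held 595 of the 884 counts of replicate 1 (67.3%, exact binomial 64.1 to 70.4%) and 805 of the 1170 of replicate 2 (68.8%, 66.1 to 71.5%), a mean of 68.1% ± 1.06 (SD, n = 2). Nearly all of this lay upstream, with 515 and 728 counts between upstream anchors. Within the MIR31HG segment itself the counts were 27 and 21, and between it and the upstream region 53 and 56. The loop domain was therefore upstream of the gene and not over its body.

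**Figure D1:**
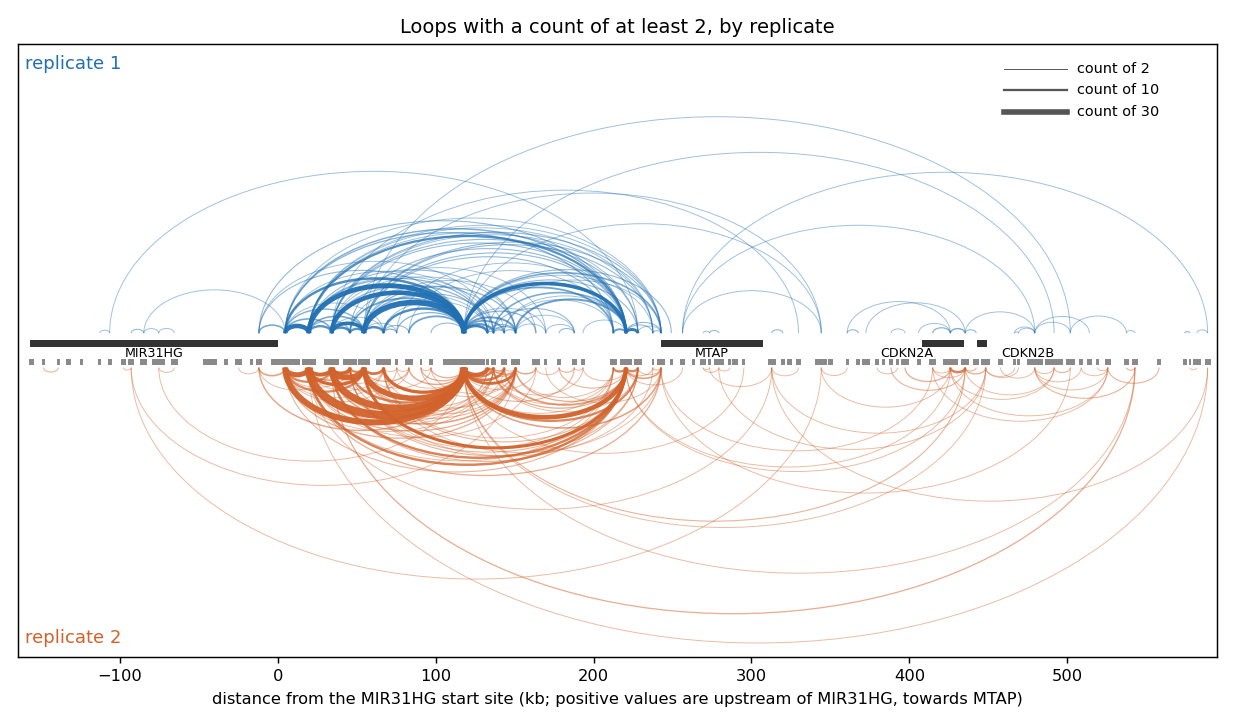
Loops with a count of at least 2 in replicate 1 (blue arcs, above) and replicate 2 (orange arcs, below), against the distance from the MIR31HG start site in kb. The line width is the count, grey boxes are the 88 anchors and black bars the genes (CDKN2A drawn to the ARF start), and the thick arcs fall between the MIR31HG start and the MTAP start in both replicates.

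Loops with a summed count over both replicates of at least 5 are called strong here, after the count the study used for high interaction signals. The locus had 67 strong loops among its 720 (9.31%), against 28962 of 1973470 in the genome (1.47%), and since the locus was chosen for its counts nothing is read from that gap. Of the 67, 66 were found in both replicates, which a threshold on the summed count makes likely. Within MIR31HG and its upstream region lay 58 of the 67. Both ends were upstream in 56 of the 58, and the other 2 joined the MIR31HG segment to the upstream region. Their midpoints were at least 20 kb apart in 42 of the 67 and at least 100 kb apart in 17. By loop length, the strong share was 22.3% under 20 kb (genome 7.92%), 12% at 20 to 50 kb (genome 1.46%) and 9.52% at 50 to 100 kb (genome 0.492%). Among longer loops it was 9.56% at 100 to 200 kb (13 of 136, genome 0.224%) and 2.47% at 200 to 400 kb (4 of 162, genome 0.0915%). The share fell less with length than over the genome, as a description of a locus chosen on its counts.

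The counts were concentrated on 6 anchors. The +118 kb anchor (chr9:21664319-21691157) had 258 and 362 counts to other anchors up to 2 Mb away in replicates 1 and 2. It was also the widest of the locus at 26839 bp, against a median of 3199 bp in the locus and 2541 bp in the genome. It joined 63 of the other 87 anchors, 19 of them by strong loops, and took part in 25.7% and 28.8% of the counts of the locus. The +54.5 kb anchor (chr9:21610571-21618162) had 132 and 166 counts, the +34.2 kb anchor (chr9:21589313-21598686) 118 and 177, and the +19.7 kb anchor (chr9:21575183-21583855) 114 and 175. The +221 kb anchor (chr9:21776484-21784226) had 120 and 150, and the +4.73 kb anchor (chr9:21555331-21573828), which holds the MIR31HG start, 94 and 132. The 7th anchor in this order had 129 counts summed over the replicates, against 226 for the 6th.

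All 6 anchors were wider than the median anchor of the locus, and how far width accounts for their depth was not tested. Counts per kb of anchor, summed over the replicates, were 23.1 at +118 kb, 33.3 at +19.7 kb, 31.5 at +34.2 kb, 39.3 at +54.5 kb, 34.9 at +221 kb and 12.2 at +4.73 kb, where the genome had a median of 5.97 and a 99th percentile of 20.5. The narrow +133 kb anchor (chr9:21691853-21693418, 1566 bp) had more per kb, 62.6. All of the 9 anchors of the locus above the 99th percentile per kb were upstream of MIR31HG. The MIR31HG promoter anchor was below it.

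Read pairs with both ends in the same anchor were also most frequent at these 6 anchors, in another order after the +118 kb anchor. The +118 kb anchor had 99 and 159, the +34.2 kb anchor 29 and 45, the +19.7 kb anchor 26 and 43, the +54.5 kb anchor 27 and 31, the +221 kb anchor 18 and 24 and the MIR31HG promoter anchor 11 and 20. The genome had a median of 1 summed count and a 99th percentile of 18, which all 6 passed and no other anchor of the locus did. Per kb of anchor the upstream region had 4.21 same-anchor counts, the MTAP segment 1.13, CDKN2A with CDKN2B 0.839 and the MIR31HG segment 0.576. How far the amount of marked chromatin in an anchor accounts for its loop counts was not tested.

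**Figure D2:**
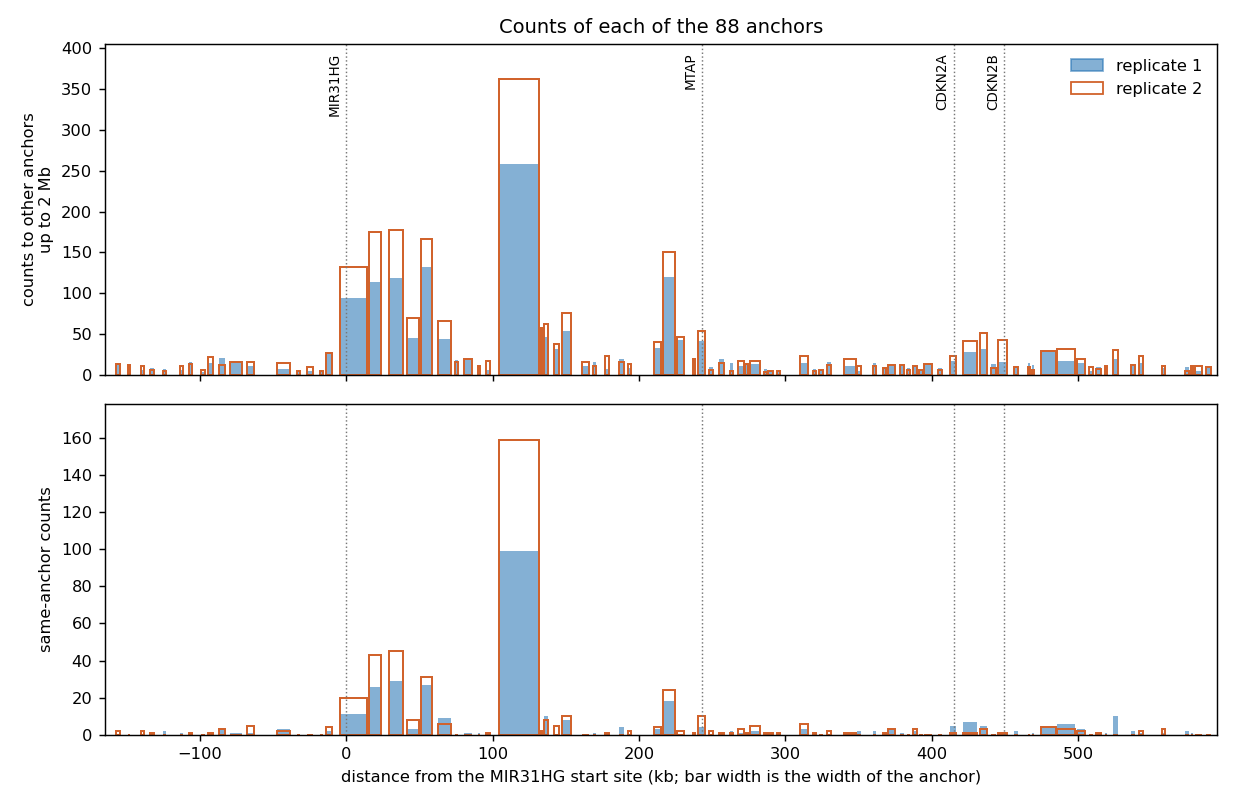
Counts of each anchor to other anchors up to 2 Mb away (upper panel) and within the anchor (lower panel), against the distance from the MIR31HG start site in kb, with replicate 1 as filled blue bars, replicate 2 as orange outlines, the bar width as the anchor width and dotted lines at the gene starts. The +118 kb anchor was highest in both panels and both replicates, and the anchors of MTAP, CDKN2A and CDKN2B stayed below 60 counts.

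All 15 pairs among these 6 anchors were joined in both replicates, by 199 and 325 counts. They made up 22.5% and 27.8% of the counts of the locus from 15 of its 3828 possible pairs. The 6 anchors were picked as the deepest by these same counts, so nothing is read from these shares.

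Of the 10 loops with the highest summed counts 6 ended in the +118 kb anchor. It was joined to the +19.7 kb anchor by 26 and 46 counts at 98.2 kb, a summed count of 72 that 12 loops of the genome reached. To the +34.2 kb anchor it had 24 and 38 counts at 83.7 kb, and to the +54.5 kb anchor 30 and 30 at 63.4 kb. The MIR31HG promoter anchor was joined to it by 11 and 33 counts at 113 kb, and the +221 kb anchor by 18 and 24 at 103 kb. The neighbour at +133 kb had 12 and 21. The other 4 left the +118 kb anchor out, namely the MIR31HG promoter anchor to +19.7 kb with 24 and 27 counts at 14.9 kb, +34.2 to +54.5 kb with 18 and 31, +19.7 to +34.2 kb with 10 and 20, and +34.2 to +45.7 kb with 11 and 17. Replicate 2 was the higher in 9 of the 10 and equal in the other, and over the genome it was deeper by a factor of 1.15.

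Each count was set against 2 expectations fitted to all anchor pairs of the genome up to 2 Mb: that of an average pair at the same distance, and that of a pair with the same distance and the depths of both anchors, leaving out the pair's own count. The loop from +19.7 to +118 kb was expected at 0.151 from distance alone and at 22.0 with depth, and its 72 counts were 3.27 times the latter (Poisson 2.56 to 4.11). By the same measure the loops of the +118 kb anchor to the MIR31HG promoter anchor, to +34.2, +54.5 and +221 kb had ratios of 2.32, 2.20, 1.54 and 1.45. The loop of 201 kb from +19.7 to +221 kb had 10 and 11 counts and a ratio of 3.66 (2.26 to 5.59). Short loops between deep neighbours were lower, with 1.02 from the MIR31HG promoter anchor to +19.7 kb and 0.439 (0.296 to 0.626) from +19.7 to +34.2 kb. Within MIR31HG and its upstream region the ratios were 0.805 below 20 kb and 0.820 at 20 to 50 kb. They were 1.62 at 50 to 100 kb, 1.43 at 100 to 200 kb and 1.43 at 200 to 400 kb. The depth of an anchor is summed from its own loops, so over all loops of an anchor this ratio lies near 1 by construction. Low ratios of its short loops therefore come with high ratios of its longer ones, and the 2 cannot be read apart.

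The MIR31HG promoter anchor had most of its counts on the upstream side. It had 84 and 121 counts in the locus, of which 79.5% went to upstream anchors and 11.7% to anchors of the MIR31HG segment. Summed, 24 counts went to lower positions, over the gene body, and 181 to higher ones. With depth, 25.4 counts were expected to the MIR31HG segment, where 24 were found, and 143 to the upstream region, where 163 were found. Most of the uneven split was thus also in the expectation with depth. Its strongest loop into the gene had 6 and 6 counts and ended at -12.0 kb. The anchor is 18498 bp wide, and most of it lies upstream of the start site, so enhancers in that stretch and the promoter cannot be told apart.

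At the far end of the upstream region the +221 kb anchor had 191 summed counts towards MIR31HG and 61 towards MTAP and beyond. These sums are not adjusted for the number or depth of the anchors on each side. The +118 kb anchor lay between, with 335 towards MIR31HG and 229 towards MTAP.

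The edges of the domain were read from the loops of up to 300 kb that cross each gap between neighbouring anchors. Within the MIR31HG body their counts had the lowest sum at -36.1 kb, with 25 in replicate 1 and 41 in replicate 2, and just below the promoter anchor, at -7.18 kb, they were 54 and 65. Just above the promoter anchor they were 107 and 151, and the highest sum, 641, was reached at +93.6 kb with 273 and 368. Relative to the distance expectation these were 1.23, 2.40, 5.28 and 11.9 times. Relative to the one with depth they were 0.439, 0.625, 0.852 and 1.72 times. The crossing counts were higher on the upstream side of the MIR31HG promoter anchor than on its other side in both replicates.

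Towards MTAP, across the +118 kb anchor, the crossing counts went from 275 and 365 at +101 kb to 232 and 278 at +132 kb. They were 158 and 201 at +216 kb, before the +221 kb anchor, and 106 and 123 at +225 kb, after it. Before the MTAP promoter anchor they were 77 and 86. After it they were 54 and 64, or 1.52 times the distance expectation and 0.598 times the one with depth. From there to CDKN2A they stayed between 105 and 128 summed, and between p16 and ARF they were 52 and 87. Of the CTCF consensus matches, that at +230 kb lay in an anchor between gaps with 229 and 180 summed crossing counts, and those at +245 and +253 kb lay in gaps with 118 and 112. Whether CTCF bound there was not measured.

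**Figure D3:**
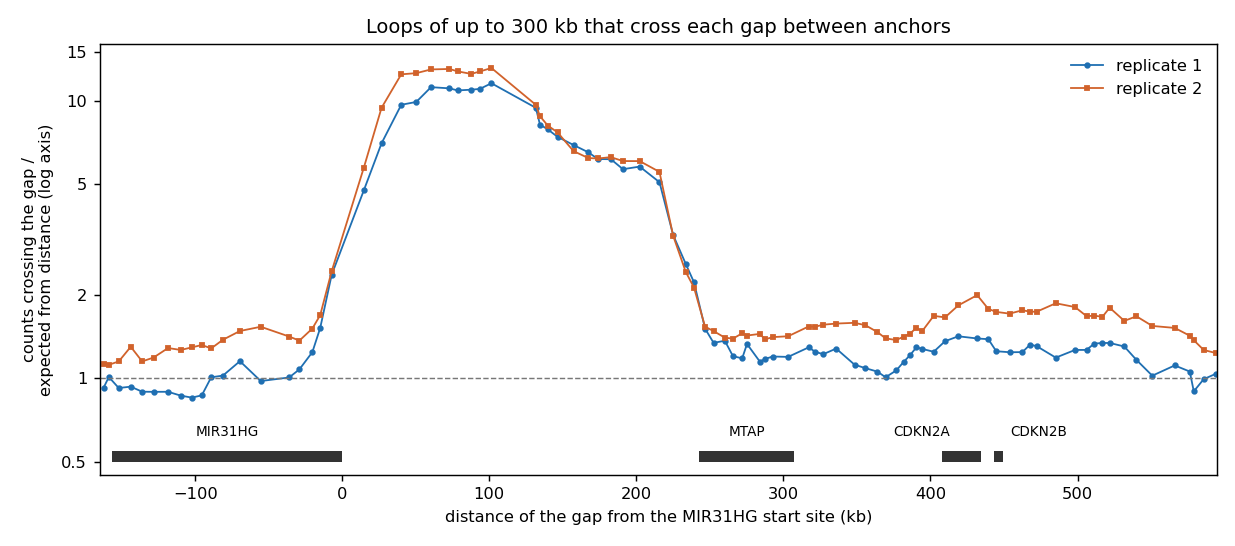
Counts of loops of up to 300 kb that cross each gap between anchors, divided by the count expected from distance alone (log axis), against the distance of the gap from the MIR31HG start site in kb, for replicate 1 (blue circles) and replicate 2 (orange squares), with genes as black bars. In both replicates the ratio rises across the MIR31HG start, is above 5 from +26.7 to +216 kb and is below 2 past the MTAP promoter anchor.

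The domain reached the MTAP promoter. The MTAP promoter anchor (chr9:21799874-21805215, 5342 bp) was joined to MIR31HG and its upstream region by 31 counts in replicate 1 and 33 in replicate 2, or 32.0 ± 1.41 (SD, n = 2). It was joined to 20 of those 41 anchors, and to 9 of them in both replicates. In all it had 38 and 44 counts in the locus, and 75.6% of them went to upstream anchors. These numbers differed between the replicates by less than their counting error.

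Of its loops 4 were strong, all to upstream anchors. The strongest ran 125 kb to the +118 kb anchor with 6 and 6 counts, and the next 22.2 kb to the +221 kb anchor with 3 and 6. Those to +19.7 kb, at 223 kb, and to the neighbouring +238 kb anchor, at 5.15 kb, had 2 and 4 and 3 and 3 counts. Loops to +34.2 and +54.5 kb had 3 and 1 counts each. All 6 of the deepest anchors were joined to it, the MIR31HG promoter anchor by 2 counts in replicate 1 and 0 in replicate 2.

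Whether these contacts exceeded the expectation depended on which expectation was used. The 64 summed counts were 8.43 times those of average pairs at the same distances (Poisson 6.49 to 10.8) and 1.07 times those of pairs with the same distances and depths (0.822 to 1.36). The loop of 223 kb to +19.7 kb was 3.24 times the latter (1.19 to 7.06) and that of 22.2 kb to +221 kb was 0.529 times (0.242 to 1.00). The depth of the MTAP promoter anchor, 95 summed counts up to 2 Mb, consists mostly of these 64. The ratio of 1.07 for their sum therefore lies near 1 largely by construction, and nothing is read from it.

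The body of MTAP had a lower ratio to the distance expectation than its promoter anchor, as a description of a locus chosen on its counts. The ratios with depth are not compared, since that of the promoter anchor lies near 1 largely by construction. The other 9 anchors of MTAP had 24 and 23 counts to MIR31HG and its upstream region, from 38 of 369 possible pairs. This was 1.15 times the distance expectation (0.843 to 1.53) and 0.606 times the one with depth (0.446 to 0.806). None of the 38 loops was strong, and over the genome 1.47% of loops were, so nothing is read from that. With the promoter anchor, the MTAP segment had 55 and 56 counts, or 55.5 ± 0.707 (SD, n = 2), 2.29 times the distance expectation (1.88 to 2.75) and 0.807 times the one with depth (0.664 to 0.972). The 2 expectations placed the segment on opposite sides of 1. From its promoter anchor to the rest of the gene there were 3 and 2 counts.

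The domain reached CDKN2A and CDKN2B by scattered low counts and by no strong loop. Over the genome 0.0915% of loops of 200 to 400 kb were strong, so nothing is read from the lack of one. The 5 anchors of CDKN2A and CDKN2B had 20 and 34 counts to MIR31HG and its upstream region, or 27 ± 9.90 (SD, n = 2), spread over 43 of 205 possible pairs. Of the 43 loops 6 were found in both replicates, and the highest summed count was 3. It occurred 3 times, between +118 kb and the anchor of the ARF and CDKN2B-AS1 starts (0 and 3), between +221 kb and the same anchor (1 and 2), and between +118 kb and the CDKN2B promoter anchor (1 and 2, at 331 kb).

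Together these counts were 5.04 times the distance expectation (Poisson 3.79 to 6.58) and 0.904 times the one with depth (0.679 to 1.18). The 6 deepest anchors gave 13 and 17 of them and joined 20 of 30 possible pairs, with a ratio of 18.0 to distance and of 0.813 (0.548 to 1.16) with depth. The upstream region as a whole had 17 and 25 counts, 0.771 times the expectation with depth (0.556 to 1.04). The MIR31HG segment had 3 and 9, each from another pair of anchors, and was on the other side of 1 with 2.29 times that expectation (1.19 to 4.01). At 1 to 3 read pairs each, single loops at this distance cannot be ranked at this depth.

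**Figure D4:**
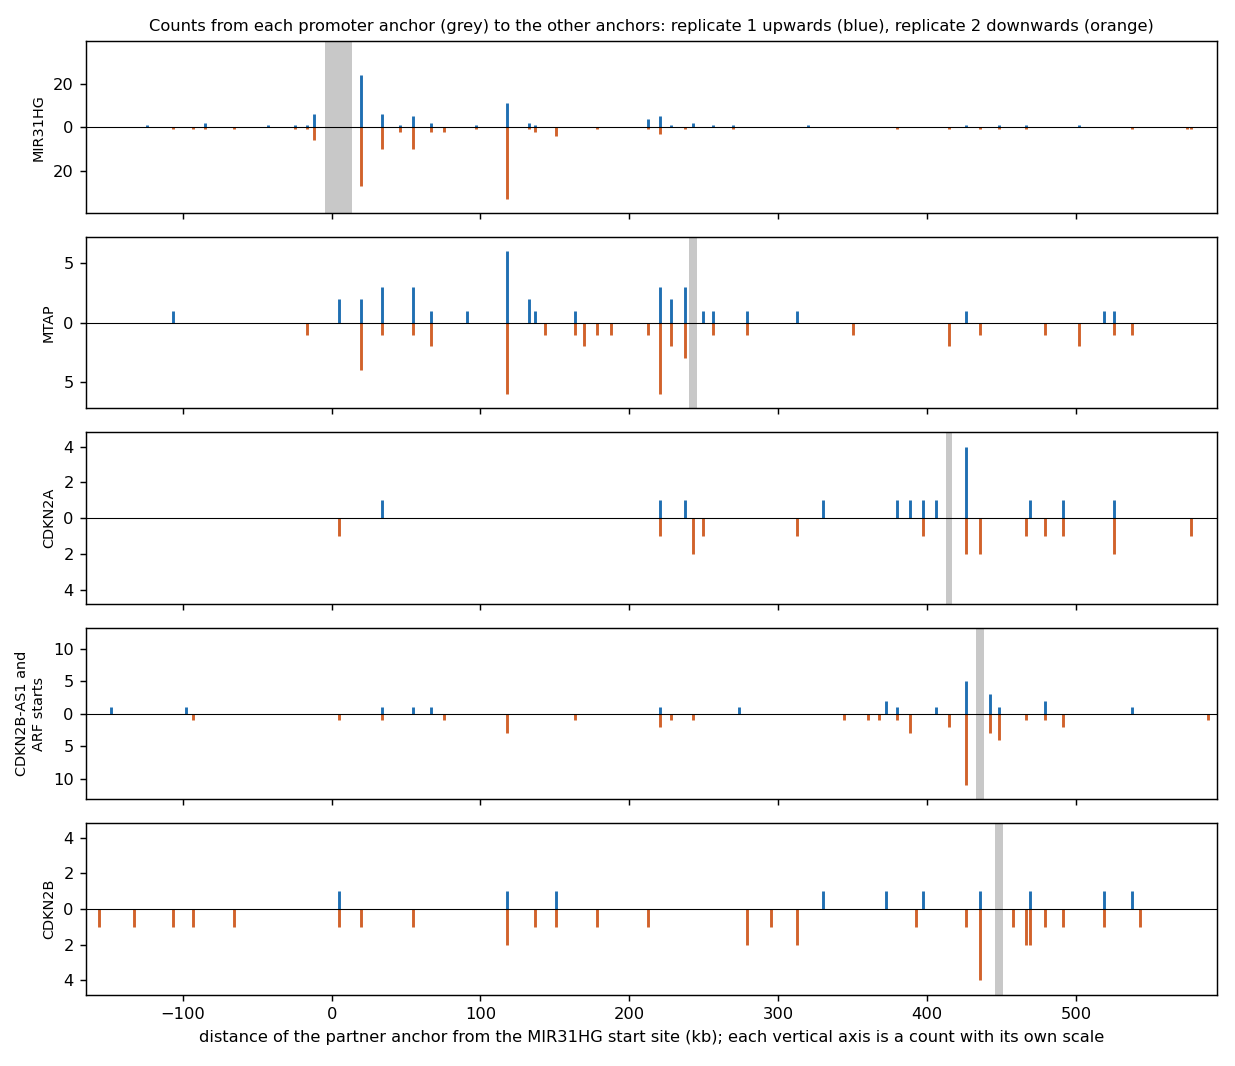
Counts between each of 5 promoter anchors (grey bands) and the other anchors of the locus, against the distance of the partner from the MIR31HG start site in kb, with replicate 1 upwards in blue and replicate 2 downwards in orange, each panel on its own scale. The MIR31HG and MTAP panels have their tallest lines between 0 and +243 kb, and in the p16, ARF and CDKN2B panels the highest count summed over both replicates lies within 13.0 kb of the centre of the grey band.

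The loop with the highest summed count of each CDKN2 promoter anchor went to an anchor at most 13.0 kb away, between centres. The p16 promoter anchor (chr9:21972576-21976668) had 15 and 17 counts in the locus, 15.6% of them to the upstream region and none to the MIR31HG segment. Its only strong loop ran 11.2 kb to the anchor between p16 and ARF (chr9:21980910-21990743) with 4 and 2 counts. To the MTAP promoter anchor it had 0 and 2.

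The anchor of the ARF and CDKN2B-AS1 starts (chr9:21992497-21997897) had 23 and 44 counts, 43.3% of them to CDKN2A and CDKN2B anchors and 20.9% to the upstream region. It carried the strongest loop outside the upstream region, 5 and 11 counts at 9.37 kb to the anchor between p16 and ARF, 1.56 times the expectation with depth (0.892 to 2.54). Its other strong loops went to chr9:22000471-22003860 with 3 and 3 and to the CDKN2B promoter anchor with 1 and 4. ARF and CDKN2B-AS1 start on opposite strands of this anchor and cannot be told apart.

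The CDKN2B promoter anchor (chr9:22005295-22011183) had 10 and 34 counts, of which 27.3% went to the upstream region and 11.4% to the MIR31HG segment. All of the latter 5 counts were in replicate 2. The replicates differed here by more than over the genome, and the SD of 17.0 was close to the mean of 22, so shares of this anchor rest largely on replicate 2.

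Between MTAP and the CDKN2 genes there were 3 and 7 counts from 50 possible pairs, none in both replicates, 1.10 times the expectation with depth (0.529 to 2.03). The anchors between MTAP and CDKN2A had 17 and 22 counts to CDKN2A and CDKN2B and 19 and 24 to the upstream region. The latter were 0.501 times the expectation with depth (0.362 to 0.674). Beyond CDKN2B, the upstream region had 29 and 46 counts, 0.961 times the expectation with depth (0.756 to 1.20), and the highest of these loops, +34.2 to +543 kb, had 0 and 4. Past the MTAP promoter anchor the domain thus had contacts in every segment up to the end of the window, and none of these loops was strong. The strong share of the genome was 7.92% under 20 kb and 0.0915% at 200 to 400 kb, so nothing is read from that absence.

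**Figure D5:**
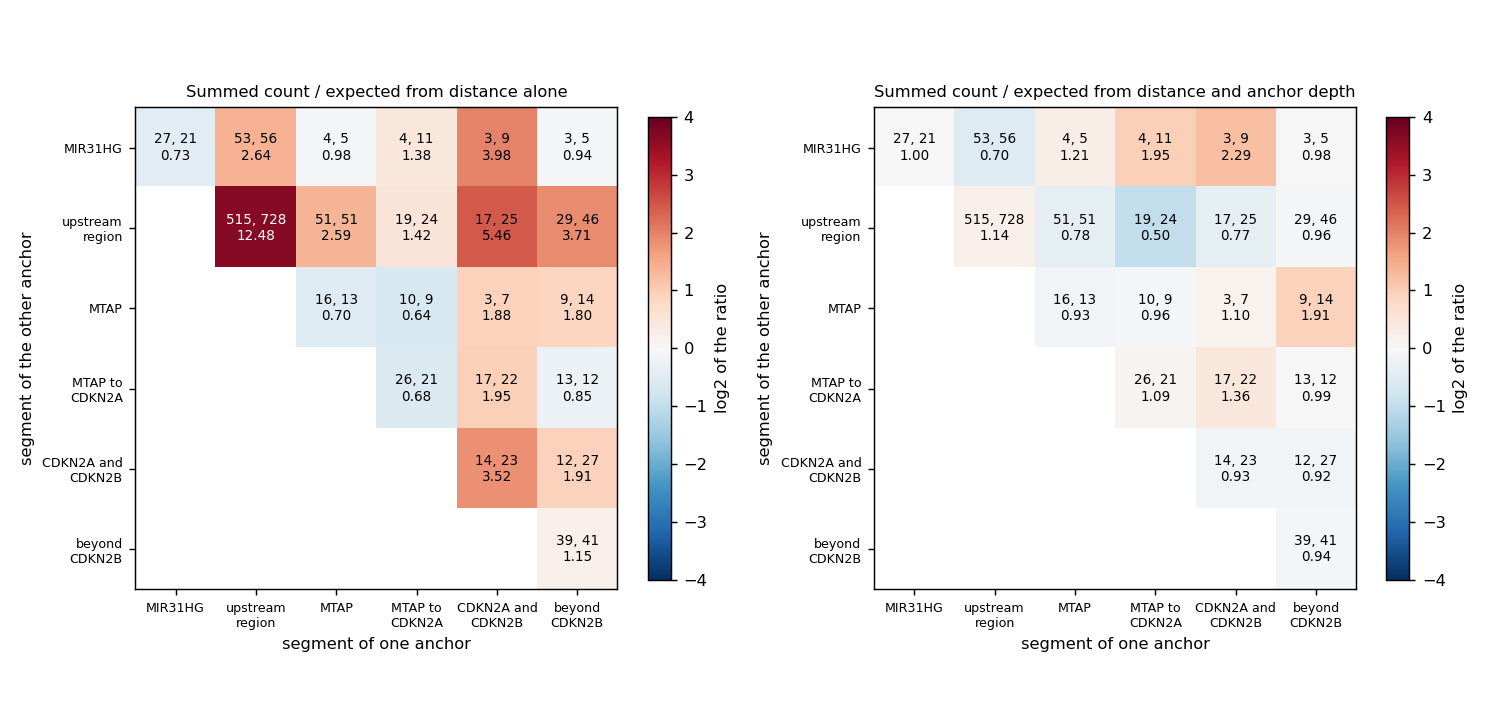
Counts between each pair of the 6 segments of the locus. Each cell gives the counts of replicates 1 and 2 and, below them, the ratio of their sum to the count expected from distance alone (left) or from distance and anchor depth (right), coloured by the log2 of that ratio; the upstream region with itself is highest on the left at 12.48 and is 1.14 on the right.

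Of the 25 annotated genes that start in the window, 12 start in an anchor. In the upstream region 2 of the 24 anchors held a start, that of MIR31HG itself and that of the pseudogene KHSRPP1. Within the MIR31HG body, the anchor of the epithelial interferon gene IFNE (chr9:21480345-21488504) had 12 and 10 counts in the locus and no strong loop. The interferon genes IFNA8 and IFNA1 start outside the anchors. MIR31 lies 47.7 kb downstream of the MIR31HG start, and the nearest anchor (chr9:21512396-21521527) had 5 and 7 counts in the locus.

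At both edges of the window the crossing counts were near the distance expectation, 1.07 times it at -159 kb and 1.14 times at +594 kb. Loops of up to 2 Mb with 1 anchor in the window numbered 269 and 306, with 286 and 333 counts. The highest summed count, 6, was that of a loop of 387 kb from the +118 kb anchor to chr9:21284122-21297821 (3 and 3), and of a loop of 4.82 kb across the lower edge (4 and 2). Just outside the upper edge, chr9:22212025-22215910 was joined to +34.2 kb by 2 and 3 counts at 620 kb, where 0.494 was expected with depth. That loop was longer than any strong loop inside the window, the longest of which spanned 223 kb.

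The 4 genes were set beside lists of related genes, by the counts up to 2 Mb of all anchors within 2.5 kb of the start. Over 29906 protein-coding and long noncoding RNA genes with such an anchor the median was 29 summed counts, and 33.7% had a strong loop. MIR31HG had 226 (94 and 132) and came 3rd of 65 microRNA host genes, after MIR23AHG with 475 and MIR378D2HG with 293. These counts were not divided by anchor width, and the MIR31HG anchor, at 18.5 kb, was the widest of that list. The locus was also chosen by its counts, so nothing is read from this place. The host genes had a median of 32, and 29 of the 65 had a strong loop. MTAP had 95 (41 and 54), the most of 9 genes listed around methionine salvage, among them MAT2A and PRMT5. Their median was 49, and 5 had a strong loop. Of the 10 genes listed, MRI1 had no such anchor.

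CDKN2B had 57 (15 and 42), 7th of 19 genes of the RB and p53 pathways, whose median was 42. CDKN2A, counted by its p16 start alone, had 40 (17 and 23) and came 11th. The anchor of its ARF start, shared with CDKN2B-AS1, had 82 (31 and 51) and did not enter that place. In that list 9 genes had a strong loop, and CCND1, the cyclin D1 gene, was highest with 138. Within the INK4 inhibitors CDKN2D (p19) had 33 and CDKN2C (p18) 21. The replicates of CDKN2B spanned 15 to 42, those of CDKN2A 17 to 23 and those of CDKN2D 15 to 18, so the order of these 3 genes and their places in the list are not settled. In replicate 1 CDKN2B was below CDKN2A. By these raw counts the locus ranged from a host gene promoter among the most looped of its list to a p16 promoter near the median of its own.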

How the data were processed

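The authors cut chromatin with MboI, processed the reads with HiC-Pro and called loops with hichipper, and the submitters' processing notes name hg19. Versions and the source of the anchors are not given in the sources used here. The deposited values are raw counts of read pairs per anchor pair, not normalized, 1 table per replicate, over 1 shared anchor set, with same-anchor pairs included. Deep sequencing, wide anchors and more H3K27ac in an anchor all raise its counts. Counts of loops up to 2 Mb on chromosomes 1 to 22 and X were used. Expected counts were fitted per replicate in 60 distance classes with anchor weights from 20 balancing rounds (Python 3.11.15, numpy 2.4.6, pandas 2.3.3, numba 0.67.0). The fit was run on counts simulated from its own model with pairs picked at random raised. That simulation does not show how the fit behaves where deep anchors cluster, as they do here. Intervals are 95% exact Poisson (scipy 1.17.1). Genes were GENCODE canonical transcripts. The summed counts of 428 loops with at least 20 divided between the replicates as sampling alone would (chi-square per degree of freedom 0.961), but over 3189 loops with at least 10 it was 1.05, and in the locus replicate 2 was higher than in the genome, so they were kept as 2 samples. The locus, its members and the gene lists were chosen with earlier results of these data known. The rule for naming took the genes that start in the window, the 10 highest loops, the highest loop between each pair of segments and the loops of the promoter anchors, of which those that bear on the reach of the domain are given. Alternatives were other windows, count minimums, assignments, expectations and leaving out each replicate.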

Additional observations from a re-analysis of the deposited data

How the results depend on the processing

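No paired analysis was possible because the study has 1 group. Leaving out each replicate gave 419 to 488 loops, a share of counts within MIR31HG and its upstream region of 67.3 to 68.8%, 55 to 56 counts from there to MTAP (0.768 to 0.851 times the expectation with depth), 20 to 34 to CDKN2A and CDKN2B (0.888 to 0.914) and 3 to 7 between MTAP and these (0.774 to 1.35). With counts of at least 2 kept, the mean per replicate was 141.5 loops in place of 453.5, the share 83.3%, and the counts to MTAP, to CDKN2A and CDKN2B and between them 29, 4.5 and 2, against 55.5, 27 and 5. The share was 66.8% from loops of at least 20 kb, 44.1% with each loop weighted once and 71.9% with same-anchor counts. Without the widest anchor, an alternative chosen after seeing the data, it was 59.6%. Counts to MTAP were 58 when any overlap placed an anchor and 76.5 over the whole MTAP gene record, which raised those between MTAP and CDKN2A with CDKN2B to 14. Against distance alone the 3 ratios were 2.29, 5.04 and 1.88 in place of 0.807, 0.904 and 1.10, so the direction of the first 2 turns with the expectation. With the expectation of chromosome 9 alone that to CDKN2A and CDKN2B was 0.934. Most loops rest on 1 read pair, which limits statements on CDKN2A to sums.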

Other observations

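Loops of over 2 Mb from the anchors of the locus, which entered no comparison, numbered 452 in replicate 1 and 532 in replicate 2, with 454 and 534 counts. Of the 981 found in either replicate 3 were found in both, and the highest summed count was 2.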
